A study of Rattus norvegicus with 59 samples.

Results

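Long H3K9me2 bins are the stretches of the rat genome over which the authors' segmentation found no step in H3K9me2 signal for 1 Mb or more. They were chosen by length alone, as bins whose end minus start was at least 1000000 bases in the deposited H3K9me2 table. This gave 540 of 6171 bins, or 8.75% of them. The borders themselves came from a segmentation of the mark, so bin length is not independent of how H3K9me2 was laid out. The word domain in the sense of a stretch rich in the mark does not describe these bins: their H3K9me2 density was close to that of the shorter bins in every group. They are therefore called long bins here.

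All animals were male Sprague Dawley rats, and chromatin came from their left ventricles, from PCM1-positive nuclei, which are cardiomyocyte nuclei. The exercise group ran intervals on an inclined treadmill for 6 weeks, starting at about 280 g, and its control group, of the same start weight, was not trained. The banded aorta group had a suture tightened around the ascending aorta at about 170 g and was examined after 6 weeks, and only animals with a thickened but not failing heart were kept. The sham-operated group, also of about 170 g, had the operation without tightening. Each group had 4 chromatin samples per mark, from nucleosomes released with micrococcal nuclease, but the deposited tables hold 1 combined value per group and bin. No difference below therefore has a replicate error or a p-value, and no statement says that a difference exceeds the spread between animals. The start weight, the operation and the experiment separate the surgery groups from the exercise groups and cannot be told apart. Cardiomyocyte marker genes could not be read from bins, which carry no gene names, so the sort was not checked on these data.

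H3K9me2, dimethylation of lysine 9 on histone H3, is written largely by the methyltransferases G9a and GLP. It is known as a broad repressive mark that covers long, gene-poor stretches, often those held near the nuclear lamina. H3K27me3, written by Polycomb repressive complex 2, is the other repressive mark measured in these nuclei and is known for covering silent developmental genes. Circular binary segmentation, the method behind the bins, joins neighbouring windows of similar signal into 1 segment and starts a new segment where the level steps up or down.

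The 540 long bins covered 1157 of the 2532 Mb binned, or 45.7%, while the 5631 shorter bins covered 1375 Mb. Their lengths ran from 1.00 to 14.7 Mb with a median of 1.60 Mb, against a median of 170 kb for the shorter bins. Of the long bins, 188 reached 2 Mb, 51 reached 4 Mb, 30 reached 5 Mb and 4 reached 10 Mb. The 188 bins of 2 Mb or more held 26.8% of the binned length, and the 51 of 4 Mb or more held 12.0%.

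The share of a chromosome lying in long bins varied widely around its median of 45.3%. Chromosome 2 had the highest share, 59.1%, in 57 long bins. Chromosome 15 followed with 57.1% in 22 bins, chromosome 11 with 56.3% in 17 bins, chromosome 13 with 51.3% in 21 bins and chromosome 14 with 50.2% in 24 bins. At the other end stood chromosome 12 with 19.0% in 7 bins, chromosome 10 with 21.2% in 16 bins and chromosome 20 with 31.2% in 10 bins. Chromosomes 10 and 12 are known as gene-rich rat chromosomes. The other 12 chromosomes lay between 37.7% (chromosome 19) and 49.8% (chromosome 16). Chromosome 1 held the most long bins, 67, and 45.9% of its length lay in them. The longest bin of chromosomes 10 and 12 reached only 2.41 and 1.72 Mb, whereas 14.7 Mb was reached on chromosome 2, 13.9 Mb on chromosome 13 and 11.7 Mb on chromosome 15.

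**Figure D1:**
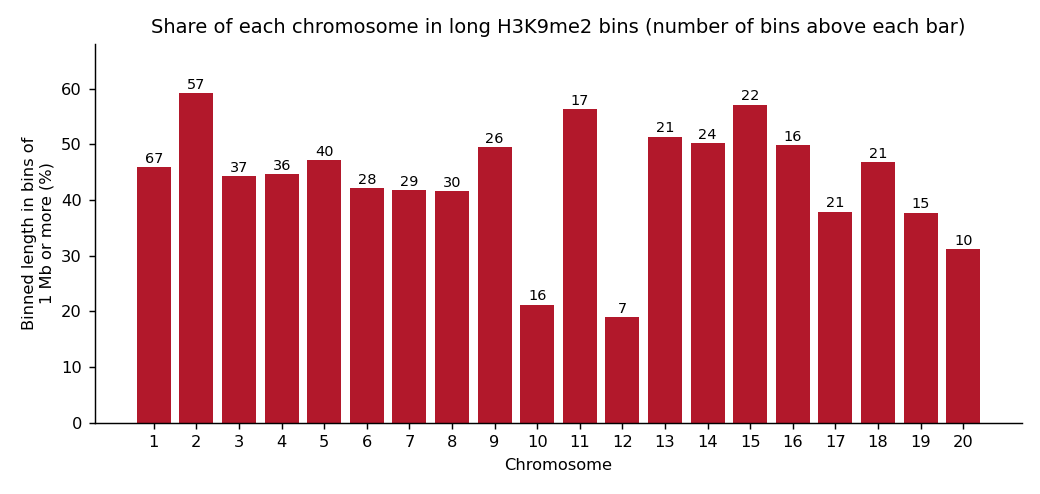
Bars give the percent of the binned length of each chromosome that lies in H3K9me2 bins of 1 Mb or more, and the number on each bar is the count of such bins. Chromosome 2 stands highest at 59.1%, while chromosomes 12 and 10 stand lowest at 19.0% and 21.2%.

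Most long bins stood alone among shorter ones. Only 87 of the 540 (16.1%) touched another long bin, and the 540 bins formed 491 separate runs. The run of most bins and greatest span lay on chromosome 13 from 3255001 to 26925001, where 5 long bins followed each other over 23.7 Mb. A second run of 5 lay on chromosome 19 from 2225001 to 9585001 and spanned 7.36 Mb. Of the long bins, 34 (6.30%) had their midpoint within 5 Mb of the first or last binned base of a chromosome, as did 9.27% of the shorter bins. Of the 40 bins that begin or end a chromosome, 11 were long. In the end zones the median density of the long bins was 344 RPM per Mb in exercised and 352 RPM per Mb in control rats, against 381 and 380 RPM per Mb for long bins elsewhere. Banded and sham-operated rats had 379 and 383 RPM per Mb in the end zones, against 388 RPM per Mb elsewhere in both groups.

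The 5 longest bins had nearly the genome's average H3K9me2 density, which was 382 RPM per Mb in every group. RPM is a read count scaled to the size of the library, and it was divided by bin length because a longer bin collects more reads. The longest lay on chromosome 2 from 62435001 to 77175001 (14.7 Mb, 354 RPM per Mb). The next lay on chromosome 13 from 12995001 to 26925001 (13.9 Mb, 356 RPM per Mb) and on chromosome 15 from 89395001 to 101055001 (11.7 Mb, 384 RPM per Mb). The other two lay on chromosome 2 from 128615001 to 140105001 (11.5 Mb, 345 RPM per Mb) and on chromosome 4 from 106605001 to 116155001 (9.55 Mb, 397 RPM per Mb). For each of these 5 bins the density was the same number in exercised, control, banded and sham-operated rats.

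The deposited values lie on a list that the groups share. When the values of each H3K9me2 column were sorted, the 4 columns held almost the same list: at 6158 of 6171 ranks the columns lay within 0.01 log2 RPM of each other. The value of a bin thus differs between groups almost only as far as its rank among all bins does. Long bins collect the most reads, and 98.1% of them stood in the top 20% of ranks in control rats, where neighbouring values lie further apart. Neighbouring ranks were 0.0144 log2 RPM apart (median) among the top 50 and 0.000765 over all bins, with a largest step of 0.563 among the top 50. Of the 10 longest bins, 7 had the same rank in all 4 groups. Of the 51 bins of 4 Mb or more, 22 kept their rank between exercised and control rats and 18 between banded and sham-operated rats. A bin moved by a median of 1 rank in this class in both comparisons, against 70 ranks for shorter bins between exercised and control rats and 121 between banded and sham-operated rats. Small differences in the longest bins could therefore not show in these values, and an equal value there is no measurement of an equal level.

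H3K9me2 density hardly separated long from shorter bins in the middle of the distribution. In exercised rats the long bins had a median of 378 RPM per Mb (quartiles 329 and 430) and the shorter bins one of 383 (304 and 469). Control rats had 379 RPM per Mb in long bins (quartiles 329 and 429) and 379 in shorter ones (295 and 479). In banded rats the medians were 387 RPM per Mb in long bins (quartiles 353 and 422) and 382 in shorter ones (337 and 428). Sham-operated rats had 388 (347 and 425) and 386 RPM per Mb (344 and 421). On the log2 scale long minus shorter was -0.016, -0.0020, 0.019 and 0.0068 in exercised, control, banded and sham-operated rats.

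Counted as total RPM over total length, long bins were a little sparser than shorter ones in each group. The values were 373 against 389 RPM per Mb in exercised rats, 373 against 390 in control rats, 376 against 387 in banded rats and 376 against 387 in sham-operated rats. With 45.7% of the binned length, the long bins held 44.6% of the total RPM in exercised and control rats, 45.0% in banded and 44.9% in sham-operated rats. Over chromosomes there was no common direction. The median of the long bins was above that of the shorter bins on 6 of 20 chromosomes in exercised, 8 in control, 12 in banded and 9 in sham-operated rats. Chromosome 10 had the greatest excess in long bins in all 4 groups (0.21, 0.27, 0.22 and 0.14 on the log2 scale in exercised, control, banded and sham-operated rats). Chromosome 12 had the greatest deficit (-0.23, -0.24, -0.17 and -0.41), resting on only 7 long bins.

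The width of the distribution was compared by the interquartile range and by the SD. The interquartile range was 0.38 log2 units in long bins of exercised and of control rats, against 0.63 and 0.70 in shorter bins. It was 0.26 log2 units in long and 0.35 in shorter bins of banded rats, and 0.29 in both sets in sham-operated rats. The middle of the distribution was thus narrower in long bins in 3 groups and alike in sham-operated rats. In the exercise experiment the SD had the same order: it was 0.40 log2 units in exercised and 0.41 in control rats, against 0.45 and 0.49 for the shorter bins. In the surgery experiment the SD, which weighs far-off bins more, was larger in long bins, with 0.35 in banded and 0.37 in sham-operated rats for long bins, against 0.29 and 0.28 for shorter bins. In the exercise experiment few long bins were dense: 7.78% exceeded 500 RPM per Mb in exercised and 7.41% in control rats, against 17.2% and 20.9% of shorter bins. In banded and sham-operated rats, 1.67% and 2.04% of long bins and 3.76% and 1.85% of shorter bins passed that mark.

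Within the long bins, the middle of the density distribution narrowed as length grew. In exercised rats the interquartile range was 0.46 log2 units for bins of 1 to under 2 Mb (352 bins), 0.31 for 2 to under 4 Mb (137 bins) and 0.16 for 4 Mb or more (51 bins). Control rats had 0.49, 0.29 and 0.15 in the same classes, banded rats 0.30, 0.20 and 0.12, and sham-operated rats 0.34, 0.21 and 0.13. The SD did not narrow from the middle to the longest class (0.32 and 0.33 log2 units in exercised rats, 0.32 and 0.33 in control rats). The medians in the longest class were 357 RPM per Mb in exercised, 359 in control, 364 in banded and 359 in sham-operated rats, and in the class of 1 to under 2 Mb they were 390, 385, 396 and 397 RPM per Mb.

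**Figure D2:**
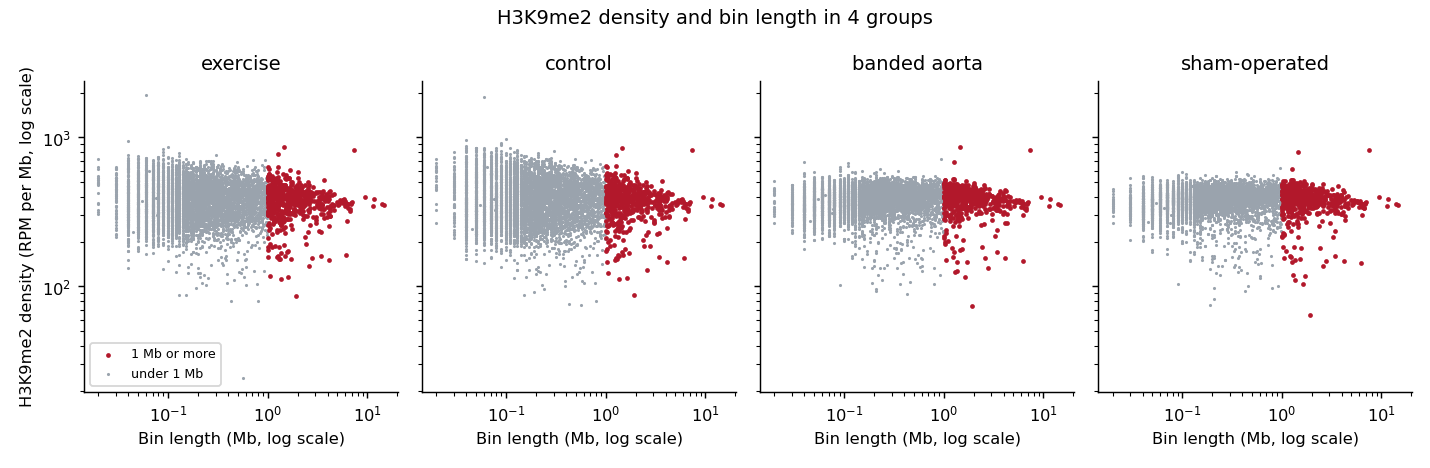
Each point is 1 H3K9me2 bin, with its length in Mb and its density in RPM per Mb on log axes, in 1 panel per group. The bulk of the long bins (red) narrows with length, and shorter bins (grey) spread more widely in the exercise and control panels than in the banded aorta and sham-operated panels.

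A few long bins stood far from the rest. The densest in control rats lay at the start of chromosome 2, from 1 to 1445001, with 865 RPM per Mb in exercised, 853 in control, 857 in banded and 800 in sham-operated rats. The next lay on chromosome 16 from 23645001 to 31075001, a bin of 7.43 Mb with 818 RPM per Mb in each of the 4 groups. It had the highest H3K9me2 value of all 6171 bins in every column, so its value was the top of the shared list. The third lay on chromosome 14 from 3735001 to 4995001, with 771 RPM per Mb in exercised, 763 in control, 680 in banded and 619 in sham-operated rats.

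The sparsest long bin lay on chromosome 15 from 19085001 to 21025001, with 85.9 RPM per Mb in exercised, 87.7 in control, 74.0 in banded and 64.8 in sham-operated rats. The next were both on chromosome 1. The bin from 68065001 to 69425001 had 113, 111, 128 and 111 RPM per Mb in exercised, control, banded and sham-operated rats. The bin from 595001 to 2215001 had 116, 114, 117 and 103 RPM per Mb in the same groups. The same bins were thus extreme in each group. The bin tables hold no input column, and whether the authors corrected for input or for mappable length is not stated. The part of either in a low or high density was not tested.

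The limit of 1 Mb cut through a continuous range. The 75 long bins under 1.1 Mb had medians of 399, 397, 404 and 406 RPM per Mb in exercised, control, banded and sham-operated rats. The 80 shorter bins of 0.9 Mb or more had 394, 398, 393 and 405 RPM per Mb. Among the 11 long bins of exactly 1.00 Mb were those on chromosome 1 from 197215001 to 198215001 (636, 648, 489 and 478 RPM per Mb in the same groups) and on chromosome 3 from 103585001 to 104585001 (342, 359, 335 and 319 RPM per Mb). Bins just outside, 0.990 Mb each, lay on chromosome 2 from 23465001 to 24455001 (307, 290, 323 and 349 RPM per Mb) and on chromosome 3 from 122535001 to 123525001 (409, 411, 424 and 427 RPM per Mb).

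Long bins were more often the denser side of a border in exercised, control and sham-operated rats, and more often the sparser side in banded rats. There were 791 borders at which a long bin touched a shorter one. The long bin was the denser side at 458 of them (57.9%) in exercised and 466 (58.9%) in control rats, and at 361 (45.6%) in banded and 433 (54.7%) in sham-operated rats. The median step in either direction was 0.34 log2 units in exercised, 0.36 in control, 0.20 in banded and 0.21 in sham-operated rats. Of the 290 long bins with a shorter neighbour on both sides, 110 were denser than both in exercised, 113 in control, 64 in banded and 106 in sham-operated rats. Sparser than both were 69, 70, 100 and 83 bins, in the same order of groups. Long bins thus included both raised and lowered stretches. A step at a border is what the segmentation searched for, so its presence is no finding.

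Exercise and control rats were compared to follow H3K9me2 in physiological growth of the heart. The median difference over the 540 long bins was 0.00 log2 RPM, with quartiles at -0.022 and 0.024, and the shorter bins had a median of 0.0015 with quartiles at -0.061 and 0.063. Of the long bins, 239 were higher in exercised rats, 253 were lower and 48 held the same value. None of the long bins (0) was higher by more than 0.2 log2 units in exercised rats, where 1.99% of all bins were. Lower by more than 0.2 were 5 long bins (0.926%), where 2.45% of all bins were, and 4.44% of all bins passed 0.2 in either direction. By length class, that last share was 11.6% for 20 to under 100 kb and 3.92% for 100 to under 250 kb. It was 0.808% for 250 to under 500 kb and 0.136% for 500 kb to under 1 Mb. Long bins were thus not below the classes nearest to them in length. How far read number and the shared list of values set these shares was not tested. Smaller shares in long bins than in all bins thus do not show that the mark moved less there.

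The 5 lower bins lay on 3 chromosomes, 3 of them on chromosome 13. On chromosome 13 from 27035001 to 28625001, H3K9me2 was at 172 RPM per Mb in exercised and 232 RPM per Mb in control rats (difference -0.43 log2). At the start of the same chromosome, from 1 to 1305001, it was at 184 against 242 RPM per Mb (-0.39). On chromosome 9 from 365001 to 1515001 it was at 283 against 351 RPM per Mb (-0.31). The other two fell outside the rule for named bins and were added after their values were seen. They lay on chromosome 15 from 29485001 to 32255001 (-0.29) and on chromosome 13 from 28915001 to 30525001 (-0.28). H3K27me3 was also lower in exercised rats over all 5 bins, by 0.056 to 0.18 log2 units. In the surgery groups 4 of the 5 bins were higher in banded than in sham-operated rats, by 0.075 to 0.13, and the chromosome 15 bin was lower (-0.14).

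At the upper end the largest differences were small. Chromosome 8 from 112485001 to 115155001 had 258 RPM per Mb in exercised and 230 RPM per Mb in control rats (0.16 log2). Chromosome 14 from 85085001 to 86165001 had 289 against 258 RPM per Mb (0.16), and chromosome 13 from 66645001 to 68825001 had 326 against 292 RPM per Mb (0.16). Over chromosomes, the median difference of the long bins ran from -0.027 to 0.021.

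Banded and sham-operated rats were compared to follow the mark under pressure overload. The long bins had a median difference of 0.021 log2 RPM with quartiles at -0.021 and 0.068, and the shorter bins one of 0.011 with quartiles at -0.11 and 0.11. This value depended on the summary: from the total RPM of all long bins the difference was 0.0018, and centred on the median of all bins it was 0.0084. Counted bin by bin, 335 of the 540 long bins (62.0%) were higher in banded rats, 179 (33.1%) were lower and 26 held the same value. Of the shorter bins, 53.0% were higher and 46.9% lower. On 16 of 20 chromosomes the median of the long bins was above 0, and on 3 it was below, with a range of -0.0072 to 0.062. From the total RPM of the long bins, 11 chromosomes were above 0 and 9 below. Since the columns share nearly the same total, from 967104 to 967116 RPM, a rise in some bins has to be matched by a fall in others.

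Large differences ran the other way. Higher by more than 0.2 in banded rats were 8 long bins (1.48%), where 7.97% of all bins were. Lower by more than 0.2 were 36 long bins (6.67%), where 11.1% of all bins were, and 19.1% of all bins passed 0.2 in either direction. By length class, that last share fell from 22.7% for 20 to under 100 kb to 17.7% for 500 kb to under 1 Mb. It was 10.5% for 1 to under 2 Mb, 4.38% for 2 to under 4 Mb and 1.96% for 4 Mb or more. The part of read number and of the shared list of values in this fall was not tested. The 36 lay on 16 chromosomes, with 6 each on chromosomes 1 and 3 and 4 on chromosome 10. Their median length was 1.36 Mb, and the longest measured 4.12 Mb.

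The 3 bins lowest in banded against sham-operated rats were alike in size of difference and in pattern. On chromosome 10 from 105475001 to 106985001, H3K9me2 was at 283 RPM per Mb in banded and 388 RPM per Mb in sham-operated rats (-0.46), and at 228 in exercised and 206 in control rats. On chromosome 3 from 157675001 to 159005001 it was at 303 against 415 RPM per Mb (-0.46), and at 238 in exercised and 215 in control rats. On chromosome 8 from 112485001 to 115155001 it was at 318 against 436 RPM per Mb (-0.45), and at 258 in exercised and 230 in control rats. In all 3, sham-operated rats stood highest and control rats lowest, with banded and exercised rats between them. That sham-operated rats stood above banded rats is set by the choice of the bins.

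The 3 bins highest in banded against sham-operated rats differed by less. Chromosome 12 from 17845001 to 19565001 had 147 RPM per Mb in banded and 117 in sham-operated rats (0.33). Chromosome 4 from 99085001 to 100415001 had 219 against 183 RPM per Mb (0.25), and chromosome 1 from 111935001 to 113495001 had 339 against 288 RPM per Mb (0.23). The 8 bins past 0.2 had a median density of 189 RPM per Mb in banded and 163 in sham-operated rats, below the medians of 387 and 388 of all long bins.

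**Figure D3:**
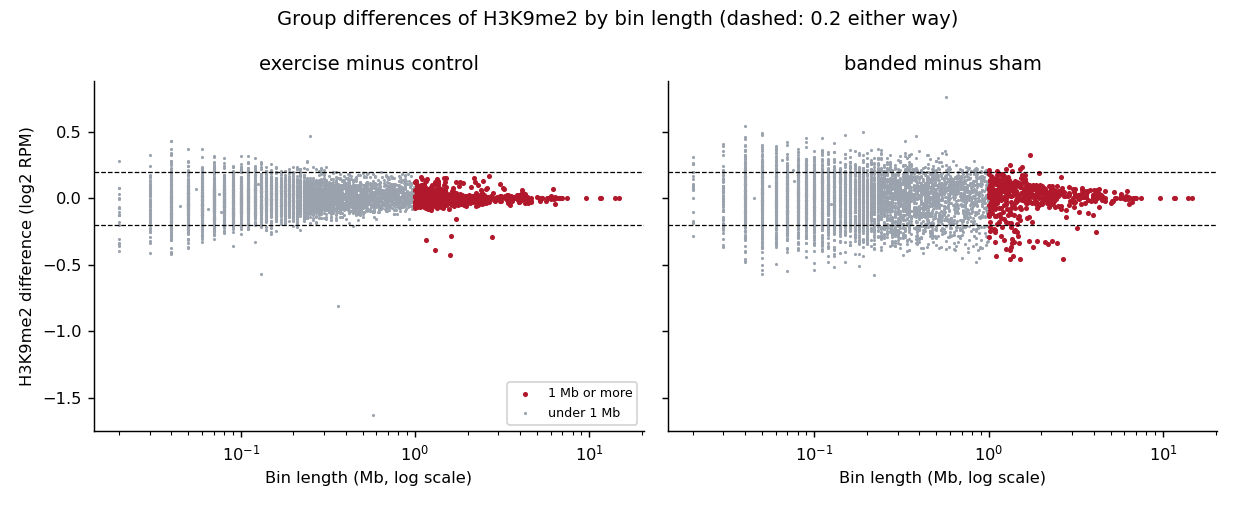
Each point is 1 H3K9me2 bin, with its length in Mb on a log axis and its difference in log2 RPM, exercise minus control on the left and banded minus sham on the right. Dashed lines mark 0.2 either way, past which lie 5 long bins (red) on the left and 44 on the right, and the points close on 0 above about 4 Mb.

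The spread of differences narrowed with length in both comparisons. For exercise minus control the SD over bins was 0.063 log2 units for 1 to under 2 Mb, 0.045 for 2 to under 4 Mb and 0.021 for 4 Mb or more, against 0.101 for all shorter bins. For banded minus sham the values were 0.130, 0.087 and 0.045, against 0.158. The part of read number and of the wider rank steps in this narrowing was not tested.

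The exercise and banding comparisons share no samples. Of the 540 long bins, 136 were lower with banding and higher with exercise and 33 were lower in both, while 96 were higher in both and 214 were lower with exercise but higher with banding. Over all 6171 bins these counts were 2025, 783, 1057 and 2224, so opposite directions were the more common in all bins too. Of the 36 long bins lower by more than 0.2 in banded rats, all 36 were higher in exercised than in control rats, with a median of 0.10 log2 units. Of all 540 long bins 239 were, and of all bins 50.1%. Of the 8 that were higher in banded rats, 6 were lower in exercised rats. Over the 540 long bins the differences of the pair of comparisons were correlated at -0.595 (Pearson) and -0.556 (Spearman), against -0.487 and -0.508 over the 5631 shorter bins. These coefficients describe bins of the same columns, which share sequence, bin length and the rank-based scale, and carry no p. In the 36 bins the median density was 285 RPM per Mb in exercised, 261 in control, 343 in banded and 429 in sham-operated rats, so sham-operated rats stood highest and control rats lowest. The choice of these bins used the sham-operated column, so its high value is partly set by that choice.

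**Figure D4:**
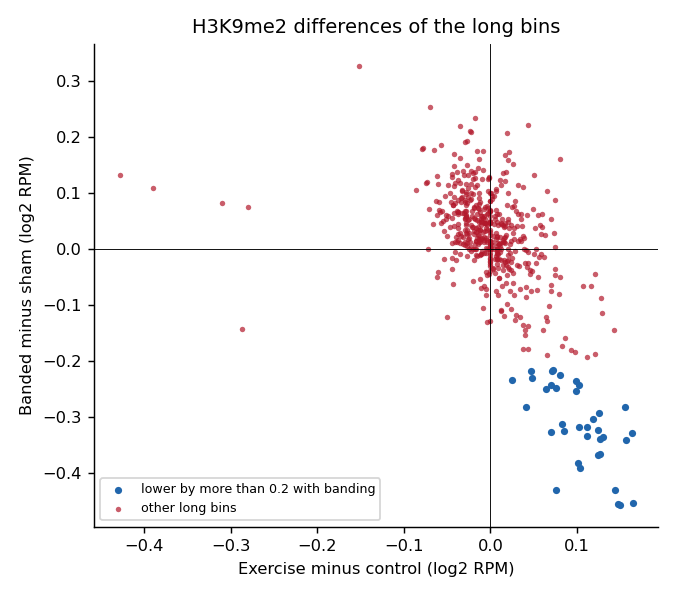
Each point is 1 of the 540 long H3K9me2 bins, with exercise minus control on the x axis and banded minus sham on the y axis, both in log2 RPM. The 36 bins lower by more than 0.2 with banding (blue) all lie to the right of 0, and 5 bins stand apart on the left, 4 of them above 0 on the y axis.

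More long bins passed 0.2 between the experiments than within either of them. Between sham-operated and control rats, 109 of the long bins (20.2%) differed by more than 0.2, against 65.5% of all bins (31.8% higher and 33.7% lower in sham-operated rats). By more than 0.5 differed 33 of the 540 long bins, against 1642 of all 6171 bins, so both counts were low for long bins. Of the 109, 72 were higher and 37 lower in sham-operated rats than in control rats. The sham minus control difference in the 3 bins lowest with banding was 0.92, 0.95 and 0.92 log2 units on chromosomes 10, 3 and 8. Those 3 bins were chosen through the same sham-operated column, so a large difference there is partly set by the choice.

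H3K27me3 density was lower in long than in shorter bins in every group. The mark was not used to choose the bins, although it was measured in nuclei of the same groups and its tables were cut into bins of their own. Split by overlapped length, H3K27me3 bins covered 98.5% of the long and 98.8% of the shorter H3K9me2 bins. H3K9me2 bins that lie inside the same H3K27me3 bin take the same H3K27me3 value, so counts of bins for this mark are not counts of separate cases. A whole H3K27me3 bin lay inside 500 of the 540 long bins. As total RPM over total length, long bins held 330 RPM per Mb of H3K27me3 in exercised rats, against 432 RPM per Mb in shorter bins. The values were 327 against 434 RPM per Mb in control rats, 344 against 420 in banded rats and 334 against 428 in sham-operated rats. As log2 ratios of long to shorter bins these were -0.39, -0.41, -0.29 and -0.36 in exercised, control, banded and sham-operated rats. By the median over bins the distance was smaller. The medians were 316 RPM per Mb in long and 349 in shorter bins of exercised rats, 311 and 353 in control rats, 337 and 367 in banded rats and 327 and 368 in sham-operated rats. Their log2 ratios were -0.14, -0.18, -0.12 and -0.17 in the same groups. On 19 of the 20 chromosomes the long bins held less H3K27me3 per Mb than the shorter ones in every group; the exception was chromosome 10 (503 against 482 RPM per Mb in exercised rats and 505 against 491 in control rats, 474 against 461 in banded rats and 479 against 473 in sham-operated rats).

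By length class, H3K27me3 density fell as the long bins grew longer, and shorter bins too had less in their longest class than in their shortest. From 20 to under 100 kb it was 478, 478, 436 and 447 RPM per Mb in exercised, control, banded and sham-operated rats. From 500 kb to under 1 Mb it was 415, 415, 412 and 414 RPM per Mb in the same groups. Over all bins it was 386, 386, 385 and 385 RPM per Mb, so long bins under 2 Mb lay near that average. In exercised rats the density was 384, 316 and 262 RPM per Mb in the classes 1 to under 2 Mb, 2 to under 4 Mb and 4 Mb or more. Control rats had 381, 312 and 261 RPM per Mb, banded rats 387, 332 and 292, and sham-operated rats 380, 321 and 279. Single bins of the longest class lay on both sides of these values. The longest, chromosome 2 from 62435001 to 77175001, had 213, 211, 258 and 246 RPM per Mb of H3K27me3 in exercised, control, banded and sham-operated rats. The chromosome 13 bin of 13.9 Mb had 225, 230, 276 and 258 RPM per Mb, and the chromosome 15 bin of 11.7 Mb had 262, 259, 297 and 284 RPM per Mb. The chromosome 2 bin of 11.5 Mb had 231, 230, 280 and 270 RPM per Mb. Above the class in every group were the chromosome 4 bin of 9.55 Mb (329, 327, 331 and 327) and the chromosome 16 bin of 7.43 Mb (601, 598, 618 and 595). Long H3K9me2 bins also lay more often in long H3K27me3 bins, with 33.2% of their length in H3K27me3 bins of 1 Mb or more, against 4.36% for shorter bins.

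Within the long bins the 2 marks went together. Ranked by H3K9me2 density, the lowest 135 long bins had a median of 223 RPM per Mb of H3K27me3 in exercised rats and the highest 135 one of 536 RPM per Mb. In control rats these medians were 240 and 523 RPM per Mb, in banded rats 265 and 468, and in sham-operated rats 255 and 448. Over the 540 long bins the log2 densities of both marks had a Pearson r of 0.81 in exercised, 0.78 in control, 0.70 in banded and 0.67 in sham-operated rats. Over the shorter bins r was 0.77, 0.78, 0.30 and 0.17 in the same groups, so in the surgery columns r was higher in long bins. It differed among the shorter bins too. In banded and sham-operated rats r was 0.24 and 0.11 for 20 to under 100 kb, and 0.51 and 0.43 for 500 kb to under 1 Mb. The SD of H3K9me2 density in these groups was 0.29 and 0.28 log2 units in shorter bins, against 0.35 and 0.37 in long bins. The part of these unequal ranges in r was not tested. The bins share sequence and mappability in both marks, and r is given as a description. The 3 sparsest long bins had little of either mark, with 109 to 126 RPM per Mb of H3K27me3 in the 4 groups on chromosome 15 and 121 to 199 RPM per Mb on chromosome 1.

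**Figure D5:**
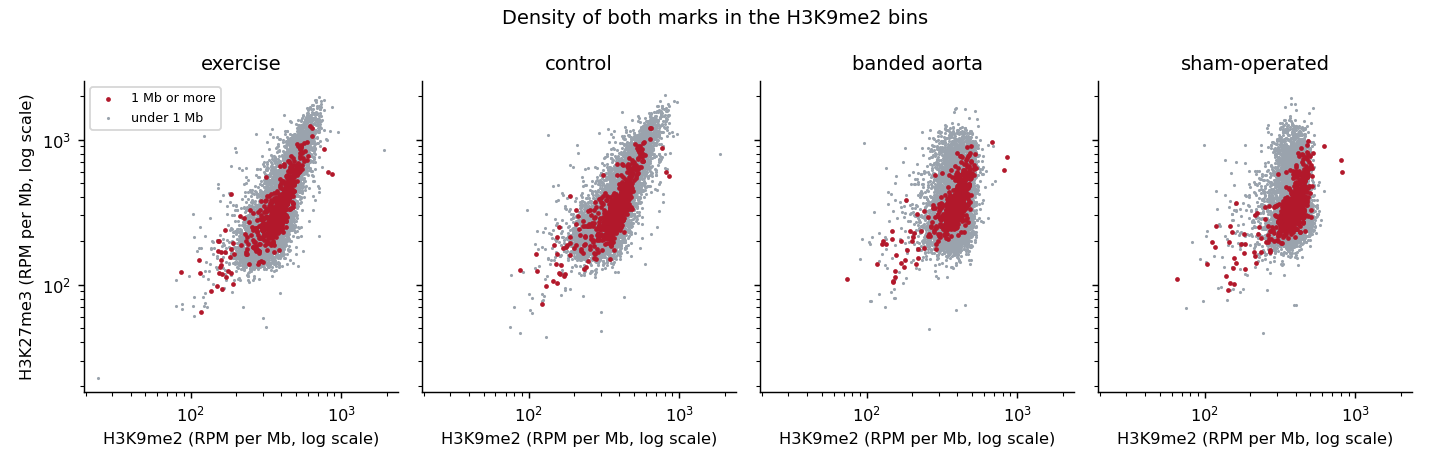
Each point is 1 H3K9me2 bin, with its H3K9me2 density on the x axis and the H3K27me3 density over the same bases on the y axis, both in RPM per Mb on log axes, in 1 panel per group. Long bins (red) rise together in all 4 panels (r of 0.81, 0.78, 0.70 and 0.67), while shorter bins (grey) form a steep cloud in the banded aorta and sham-operated panels (r of 0.30 and 0.17).

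H3K27me3 in the long bins was slightly higher in banded than in sham-operated rats. The median difference over the 540 bins was 0.046 log2 units, with quartiles at 0.011 and 0.078, and 428 bins were higher and 110 lower. Over the shorter bins the median was -0.033, with 1949 higher and 3673 lower. Among the 51 bins of 4 Mb or more, 50 were higher in banded rats, with a median of 0.065. The H3K27me3 columns too were put on nearly the same list of values and total, so a lower level over short bins and a higher one over long bins cannot be told apart. Past 0.2, 5 long bins were higher and 4 lower, where 0.551% and 5.49% of all bins were. Some of these bins share an H3K27me3 value: the lowest difference was -0.43 both for 1 to under 2 Mb and for 2 to under 4 Mb.

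Between exercised and control rats the H3K27me3 difference over long bins had a median of 0.014, with quartiles at -0.019 and 0.041, and 334 bins were higher and 204 lower. The shorter bins had a median of -0.020. None of the long bins (0) was higher by more than 0.2, where 0.470% of all bins were, and 2 were lower, where 6.00% were. The 36 bins lower in H3K9me2 with banding had less H3K27me3 in banded than in sham-operated rats in 34 cases (median -0.098). Of all 6171 bins 3783 had less in that comparison, and of the 540 long bins 110. The same 36 bins had less H3K27me3 in exercised than in control rats in 35 cases (median -0.095), although H3K9me2 there was higher in exercised rats. Of all bins 3569 had less there, and of the long bins 204. Bins inside the same H3K27me3 bin share its value, so these are not counts of separate cases.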

How the data were processed

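The authors deposited log2 RPM (read counts scaled to library size) per bin for H3K9me2 and H3K27me3, as 1 column per group, per the file headers; how 4 samples became 1 column is not stated. File names give circular binary segmentation as the source of the bins, and which samples set the borders is not stated. Bowtie, SAMtools, edgeR and R 2.15.1 appear in the submitters' processing notes with no role. Neither genome build nor sequencing depth is stated, so coordinates are those of the files, no sequence is printed, no gene was placed on a bin and no interval could be computed. Both H3K9me2 tables had identical borders and shared values. The bins covered 20 chromosomes, numbered 1 to 20; X and Y were not analysed here.

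RPM was taken as 2 to the power of the deposited log2 value and divided by length for density. Differences are between deposited log2 values, with no pseudocount. H3K27me3 was split over H3K9me2 bins by overlapped length. With 1 value per group, differences past 0.2 log2 units were counted and no test was run. Bins named are the 5 longest, the 3 densest and 3 sparsest in control rats, the 3 largest differences each way per comparison and a pair on each side of 1 Mb. The members, thresholds and comparisons were chosen with earlier results of these data known. The length threshold, fold, pseudocount, weighting, centring, low-value filter and overlap rule were varied. Scripts, tested on simulated data, used Python 3.11.15 with pandas 2.3.3, numpy 2.4.6, scipy 1.17.1 and matplotlib 3.10.9. RNA tables were not used.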

Additional observations from a re-analysis of the deposited data

How the results depend on the processing

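Of the alternative values of the main results, 110 stayed within 1 SD over the 20 chromosomes of the value reported or, for counts, within 1.5 times, while 12 moved further. All 36 for single named bins stayed within 1 SD of the differences over the long bins. Some of the 110 could not differ, namely those from the identical surgery borders and the counts without bins of equal value. For H3K9me2 density, long minus shorter, the SD was 0.083 to 0.117 log2 units, wider than the values themselves. Staying within it allowed a change of sign, as in banded rats (0.019, but -0.040 from total RPM). For the median H3K9me2 difference with banding the SD over chromosomes, 0.020, is as large as the value itself. That value was 0.013 at 2 Mb, 0.0084 centred on the median of all bins and 0.0018 from total RPM. The number and share of long bins follow the threshold: 298 bins (34.2% of the binned length) at 1.5 Mb and 188 bins (26.8%) at 2 Mb. Counts past a fold follow the fold. With 0.1, 28 long bins were higher with exercise, 78 were higher and 67 lower with banding. With 0.3, 3 were lower with exercise, and 1 was higher and 21 were lower with banding. Centring on the median of all bins left 5 bins higher with banding, and gave a median H3K27me3 difference with banding of 0.070. The alternatives for that median, and leaving out the long bins of equal value, were chosen after seeing the data. A bin of equal value cannot pass 0.2, so leaving such bins out could not change the counts past 0.2. No paired analysis was possible because the tables hold 1 column per group and carry no replicate numbers; for the same reason no replicate could be left out. The total depth behind a bin is unknown, and the shared list of values limits what the longest bins can show.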
